A study of Mus musculus with 26 samples.

Results

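Gene expression after mCherry-Fc was read in cells carrying synthetic IL-22 receptors, from 12 of the 26 arrays in the series, 6 labelled as stimulated with mCherry-Fc and 6 as left without ligand. All groups were murine Ba/F3/gp130 cells, a pro-B cell line that needs interleukin-3 or Hyper-IL-6 (a fusion of IL-6 and its soluble receptor) to grow and that also carries gp130, the signal chain shared by the IL-6 family of cytokines. The synthetic receptor cells expressed IL-10R2 with an mCherry nanobody (mCherryVHHIL-10R2) and IL-22Rα1 with a GFP nanobody (GFPVHHIL-22Rα1). They received mCherry-Fc, mCherry joined to an antibody Fc part, which pairs into dimers (n = 6), GFP-mCherry, in which 1 molecule offers a partner to each nanobody (n = 6), or no ligand (n = 6). Natural receptor cells with IL-10R2 and IL-22Rα1 received IL-22 (n = 4) or no ligand (n = 4). In all groups, untreated ones included, the cells had been washed 4 times and starved without serum for 4 h, and ligands were given at 100 ng/ml for 2 h.

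IL-10R2 is the short, shared chain of the IL-10, IL-22 and interferon lambda receptors and brings the kinase TYK2 to the complex, while IL-22Rα1 brings JAK1 and holds most of the docking sites for STAT3. Joined chains signal through JAK kinases to STAT factors, which raise SOCS feedback inhibitors and PIM survival kinases. Cytokine receptors can also feed the ERK pathway, whose output includes its own brakes (DUSP phosphatases, Sprouty and SPRED proteins), and growth programmes under MYC. The series' design text gives the overall influence of the constructs as its question, and mCherry-Fc is the ligand that only the mCherry nanobody on IL-10R2 can bind. No group received an Fc protein without mCherry, so binding of IL-10R2 and the mere addition of an Fc protein cannot be told apart. Fcer1g, the signal chain shared by several Fc receptors, averaged 11.57 ± 0.06 in mCherry-Fc arrays and 11.53 ± 0.16 in untreated arrays (log2 intensity, SD, n = 6 each). The Fc gamma receptor genes Fcgr1, Fcgr2b, Fcgr3 and Fcgr4 averaged between 4.00 and 6.20 in mCherry-Fc arrays and between 4.17 and 6.24 in untreated arrays, all below the 6.53 of the median gene, and their part in the response was not tested.

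With mCherry-Fc 5371 of 19938 genes passed the test (26.9%), 2788 higher (14.0%) and 2583 lower (13.0%), at an adjusted p under 0.05 from limma's linear model with Benjamini-Hochberg adjustment over all genes. Most differences were small. Only 133 of the called genes differed by 1.5-fold or more, 124 of them higher and 9 lower, and 12 differed by 2-fold or more, all 12 higher. In 2256 genes (11.3%) the 2 groups of 6 arrays did not overlap. When a change of more than 1.5-fold was itself tested, 15 genes passed and all 15 were higher: Pim1, Pim2, Id1, Dusp6, Dusp4, Etv5, Myc, Fosl1, Plk3, Ier2, Rpp38, Sinhcaf, Socs3, Spred2 and Nop56. The labels do not say whether replicates came from separate cultures, so the p-values measure the spread between these samples, which may be technical. In bulk RNA a change in every cell and a change in the share of cells cannot be told apart.

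The arrays also differed in overall level. The median over all probe sets of an array lay between 6.06 and 6.14 (log2) in mCherry-Fc arrays and between 6.17 and 6.28 in untreated arrays, a difference of -0.11 without overlap (two-sided exact permutation test over 924 splits, p = 0.00216, n = 6 against 6). GFP-mCherry arrays had medians of 6.06 to 6.13. Across the 19938 genes the median difference was -0.04 as deposited, 0.06 after centring each array on its median and -0.01 after quantile normalization. Centring gave 4360 higher and 742 lower genes (85.5% higher, against 51.9% as deposited), and quantile normalization 1547 and 1599. The number of rises and the number of falls thus both depend on the scale. Genes below the median level held 1685 of the 2583 falls and 80 of the 2788 rises. Olfactory receptor genes, a family of sensory neurons that was picked after its values were seen, gave 148 falls and 6 rises among 1027 genes, with 42 and 20 after centring. Over all genes 13.0% fell. Of the 9969 genes below the median level 1685 fell, a share no smaller than in this family.

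**Figure D1:**
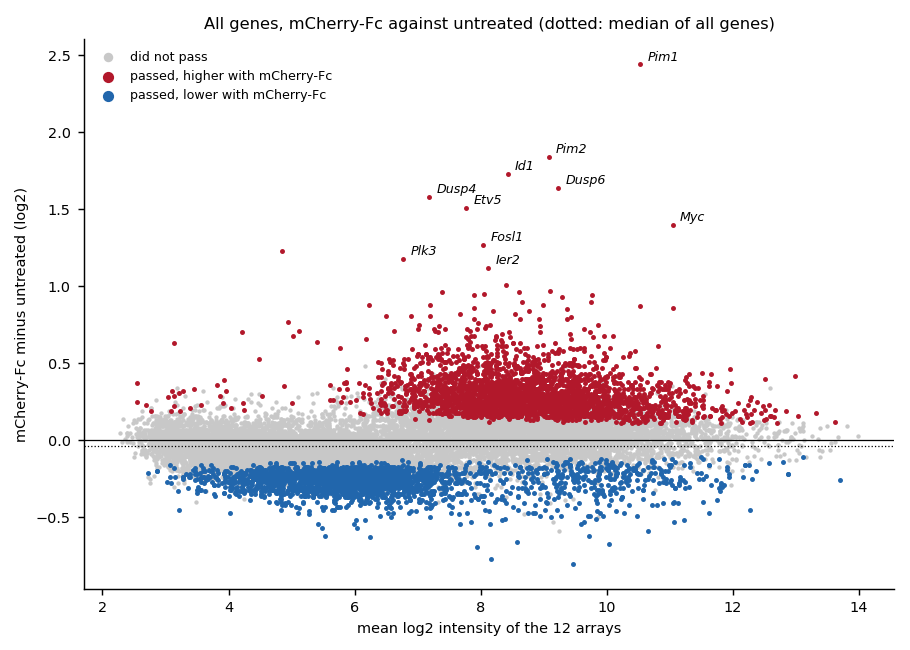
Difference between mCherry-Fc and untreated arrays (log2, vertical axis) against the mean log2 intensity of the 12 arrays (horizontal axis), 1 point for each of 19938 genes, coloured where the gene passed the test. Rises reach 2.44 (Pim1), no fall that passed reaches 1 log2 unit, and the falls that passed lie mostly among dim genes.

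Pim1 and Pim2, which encode PIM kinases, had the largest rises of all 19938 genes. Pim1 (probe set 10443527), a serine/threonine kinase that cytokines induce through STATs and that promotes survival, read 11.63, 11.76 and 11.86 in mCherry-Fc arrays, given here and below as the lowest, median and highest log2 intensity of a group, against 8.85, 9.32 and 9.77 in untreated arrays. The groups were far apart, and the untreated arrays fell into a higher set (replicates 7, 9 and 11) and a lower one (replicates 12, 13 and 14). Pim1 rose 5.41-fold (log2 2.44, SE 0.15, adjusted p = 8.24e-12), by 2.13 within low replicate numbers (7 to 11) and by 2.74 within high ones (12 to 15). Pim2, its X-linked relative, read 9.68, 10.00 and 10.33 with mCherry-Fc against 7.94, 8.17 and 8.35 in untreated arrays and rose 3.59-fold (log2 1.84, SE 0.17, adjusted p = 1.85e-08). Pim3, the third of the family, passed as lower by a small amount (log2 -0.22, adjusted p = 0.0414), a call that was lost after median centring (log2 -0.13, adjusted p = 0.154), without untreated replicates 7, 9 or 11 (0.137, 0.0957 and 0.0788) and without mCherry-Fc replicates 9, 13, 14 or 15 (0.0627, 0.104, 0.0755 and 0.0739).

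Feedback genes of the ERK pathway formed the second group. Of 16 measured, 11 rose and none fell (median 0.41, against -0.04 over all genes), and 9 to 11 rose, with at most 1 fall, when any 1 array was left out. Dusp6 (probe set 10366043), a phosphatase that acts on ERK itself, read 9.89, 10.04 and 10.21 in mCherry-Fc arrays, against 8.37, 8.39 and 8.52 in untreated arrays. It rose 3.11-fold (log2 1.64, SE 0.09, adjusted p = 4.04e-13) with a gap of more than 1 log2 unit between the groups. Dusp4, a nuclear phosphatase of the same family, read 7.68, 8.03 and 8.21 with mCherry-Fc and 6.11, 6.45 and 6.56 without ligand, a 2.99-fold rise (log2 1.58, SE 0.09, adjusted p = 1.55e-12). Etv5, an ETS transcription factor downstream of ERK, rose 2.84-fold (log2 1.51, SE 0.10, adjusted p = 1.13e-11) and its second probe set by 1.22. The inhibitors of RAF activation Spred2 (log2 0.93) and Spred1 (0.84) rose, as did the Sprouty genes Spry2 (0.60) and Spry4 (0.33) and the phosphatase genes Dusp7 (0.53) and Dusp5 (0.45). Spry1 (-0.02), Etv4 (-0.06), Dusp1 (-0.09), Spred3 (-0.03) and Etv1 (-0.18) did not pass.

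Early response genes moved unevenly. Of 26 measured, 11 rose and 3 fell (median 0.11). Fosl1, which encodes the AP-1 subunit FRA-1, read 8.59, 8.67 and 8.79 with mCherry-Fc against 6.95, 7.51 and 7.63 in untreated arrays and rose 2.41-fold (log2 1.27, SE 0.14, adjusted p = 3.59e-07). Ier2, an immediate early nuclear protein, rose 2.17-fold (log2 1.12, SE 0.08), and Ier3, an early gene linked to survival, rose 1.94-fold (log2 0.95, SE 0.26, adjusted p = 0.00859). Plk3, a polo-like kinase of early response, rose 2.27-fold (log2 1.18, SE 0.11), and Egr2 rose 1.48-fold (log2 0.56, adjusted p = 0.00328, or 0.0618 with the replicate number as a block). Egr1, the best known member, did not pass (log2 -0.05, adjusted p = 0.743), and Klf6 (-0.47) and Nr4a2 (-0.37) were among the falls. Id1, which encodes a helix-loop-helix protein that holds back differentiation factors, read 9.09, 9.27 and 9.48 with mCherry-Fc against 7.41, 7.53 and 7.81 in untreated arrays, with no overlap, and rose 3.32-fold (log2 1.73, SE 0.10, adjusted p = 2.41e-12). Sik1, a salt-inducible kinase, rose 1.69-fold (log2 0.75, SE 0.11, adjusted p = 2.71e-05).

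**Figure D2:**
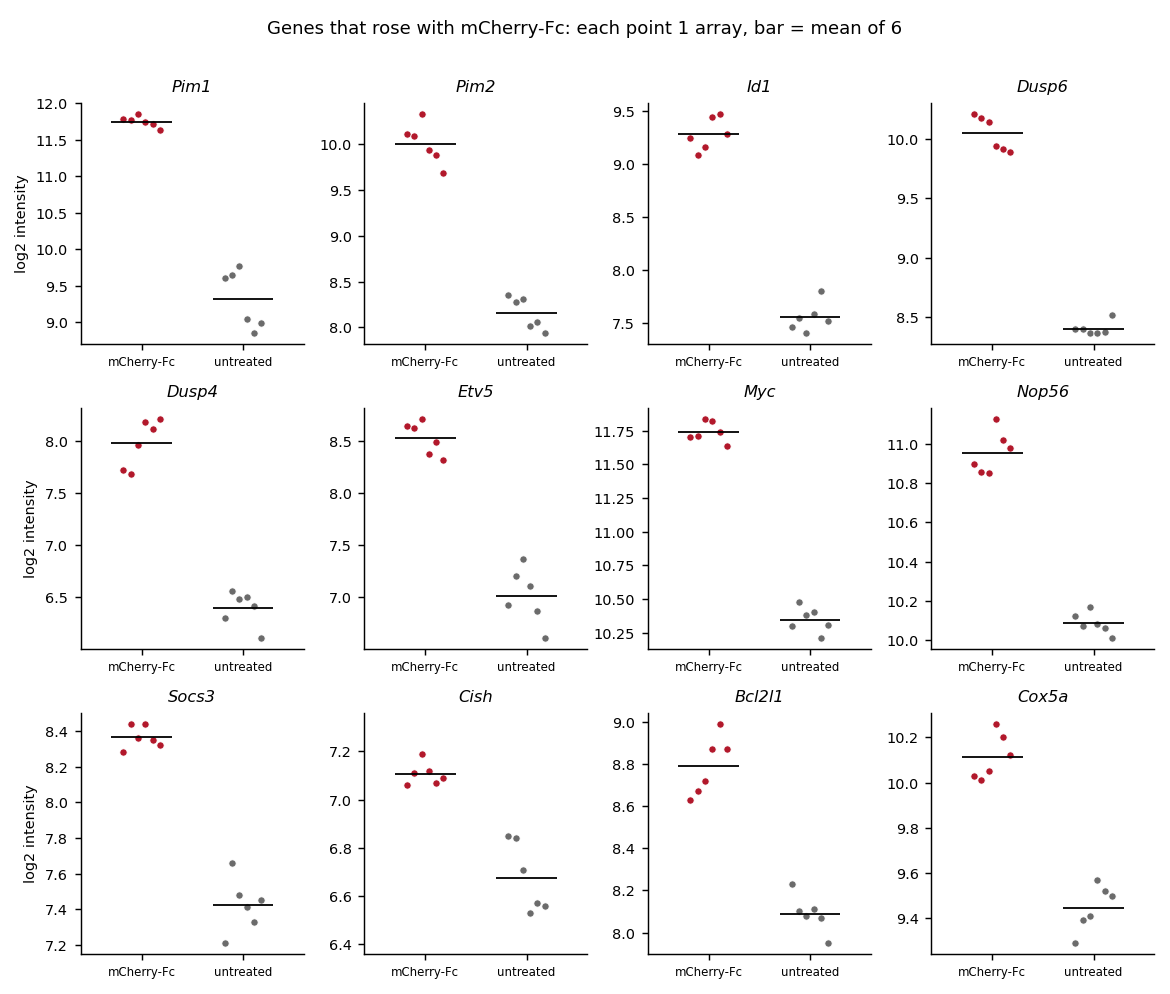
Log2 intensity of 12 genes in each of the 6 mCherry-Fc arrays (left in each panel) and the 6 untreated arrays (right), with the mean as a bar and a vertical scale of its own in each panel. In all 12 panels the 2 groups do not overlap. Pim1 has the widest gap, and Cish, with a rise of 0.43, the narrowest difference of means.

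Genes under STAT factors rose in part. The lists share members, so their counts are not independent: Pim1 is counted in the PIM, STAT5 and STAT3 lists, and Myc in the early response and biogenesis lists. STAT5 target genes gave 12 rises and 1 fall in 20 (median 0.41), among them Bcl2l1, which encodes the survival protein BCL-XL, at 8.63, 8.79 and 8.99 with mCherry-Fc against 7.95, 8.09 and 8.23 in untreated arrays (1.63-fold, log2 0.70, SE 0.06, adjusted p = 9.49e-09). STAT3 feedback and target genes gave 14 rises and 2 falls in 25 (median 0.28), with 9 rises after quantile normalization, 18 after median centring and 10 to 13 when 1 array was left out. Il4ra, the IL-4 receptor alpha chain, rose 1.73-fold (log2 0.79, SE 0.07, adjusted p = 5.84e-09), Zfp36, which encodes a protein that destabilises cytokine mRNAs, 1.60-fold (log2 0.68, SE 0.12), and Sbno2, which takes part in the IL-10 response, 1.38-fold (log2 0.47, SE 0.06). Junb, an AP-1 subunit, rose 1.38-fold (log2 0.47, adjusted p = 0.00619), with an adjusted p of 0.0629 when the replicate number was a block. Stat3 itself (log2 0.09, adjusted p = 0.191) and Bcl3, a nuclear IκB protein (0.11, 0.340), did not pass but did after median centring (0.0328 and 0.0483).

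In the SOCS family, the feedback inhibitors of JAK kinases, 5 of 8 genes rose and none fell (median 0.32). Socs3 (probe set 10393449) read 8.28, 8.36 and 8.44 in mCherry-Fc arrays, against 7.21, 7.43 and 7.66 in untreated arrays, and rose 1.92-fold (log2 0.94, SE 0.07, adjusted p = 3.45e-10). On another, dimmer probe set for Socs3 the difference was 0.16 (adjusted p = 0.24). Socs2 rose 1.44-fold (log2 0.53, SE 0.10, adjusted p = 0.000322) and by 0.36 on its second probe set, and Cish 1.35-fold (log2 0.43, SE 0.11, adjusted p = 0.00527), from 6 mCherry-Fc arrays that all lay above the 6 untreated ones. Socs6 passed on 1 of 3 probe sets (log2 0.32), and Socs4 (0.32, adjusted p = 0.0151) lost its call with the replicate block (0.0729) and with quantile normalization (0.0883). Socs1, another inhibitor of JAK kinases, did not pass (log2 -0.11, adjusted p = 0.360). The probe sets of the receptor genes did not pass, with Il10rb at 0.05, Il22ra1 at -0.08 and Il6st, the gp130 gene, at -0.09. Il22ra1 was dim in the synthetic receptor cells, at 6.16 to 6.28 with mCherry-Fc and 6.18 to 6.48 without ligand, against 12.22 to 12.43 in natural untreated arrays. Il10rb read 10.02 to 10.20 with mCherry-Fc, 9.99 to 10.16 without ligand and 11.71 to 12.21 in natural untreated arrays. Il6st was dim in all groups, at 4.73 to 4.96 with mCherry-Fc and 4.88 to 5.06 without ligand. Which parts of the constructs the probes match is not given in the sources used here.

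Genes of ribosome production rose as a block. Of 34 MYC and ribosome biogenesis genes, 29 rose and none fell (median 0.33, against -0.04 over all genes), with 26 to 32 rises and no fall in the other settings tried. Myc (probe set 10424400) read 11.64, 11.72 and 11.84 with mCherry-Fc against 10.21, 10.34 and 10.48 in untreated arrays and rose 2.63-fold (log2 1.40, SE 0.07, adjusted p = 2.78e-13), and its relative Mycn rose 1.96-fold (log2 0.97, SE 0.16). Nop56, a core protein of the box C/D snoRNPs that guide rRNA methylation, read 10.85, 10.94 and 11.13 against 10.01, 10.07 and 10.17 and rose 1.83-fold (log2 0.87, SE 0.06). Nop2, an rRNA methyltransferase, rose 1.73-fold (log2 0.79, SE 0.07, adjusted p = 1.37e-08), and Polr1b, the second largest subunit of RNA polymerase I, by 0.82. Rpp38, a subunit of RNase P that acts on tRNA and rRNA precursors, read 8.69, 8.94 and 9.05 against 7.74, 7.88 and 8.14 and rose 2.02-fold (log2 1.01, SE 0.08). Max, which encodes the partner of MYC on DNA, rose 1.40-fold (log2 0.48, SE 0.08, adjusted p = 4.94e-05). Kbtbd8, which encodes an adaptor of a CUL3 ubiquitin ligase, rose 1.94-fold (log2 0.96, SE 0.17), and Sinhcaf, a subunit of the SIN3 histone deacetylase complex, 1.92-fold (log2 0.94, SE 0.06), the same on its second probe set (0.93).

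The sites to which MYC and MAX bind, E-boxes with the letters CACGTG, were searched in RefSeq promoter windows (GRCm38.p6, 250 bases before to 50 after the start). They were found in 6 of 28 windows of the biogenesis list (21.4%), in 7 of 23 of the STAT3 list (30.4%), in 2 of 12 of the ERK feedback list (16.7%), in 2 of the 10 windows available for the 15 largest rises among genes at or above the median level (Pim1 and Rpp38, 20%) and in 1481 of 15563 windows of all measured genes (9.52%). CACGTG reads the same on both strands. The stretches for Pim1, the largest rise, and Nop2, a biogenesis gene, are shown 5′ to 3′ on the gene's strand with the E-box in capitals.
Pim1, chr17:29492968-29493047, plus strand: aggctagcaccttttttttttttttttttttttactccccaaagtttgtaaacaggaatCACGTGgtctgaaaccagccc
Nop2, chr6:125131764-125131843, plus strand: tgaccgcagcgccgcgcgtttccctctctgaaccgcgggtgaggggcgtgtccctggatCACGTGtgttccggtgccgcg
The match starts 58 bases before the Pim1 start and 60 before the Nop2 start. A match is a string of letters and not a measured binding site.

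Other growth lists moved by less. Among all 9969 genes at or above the median level 2708 rose and 898 fell (median 0.08). List medians of 0.07 to 0.12, here and in the next paragraph, lie near that value, and those lists are not set apart from bright genes in general. Oxidative phosphorylation genes gave 15 rises and no fall in 23 (median 0.23), with 11 rises and 1 fall after quantile normalization (median 0.15) and 20 rises after centring. They were led by Cox5a, a subunit of cytochrome c oxidase, at 10.01, 10.09 and 10.26 with mCherry-Fc against 9.29, 9.45 and 9.57 in untreated arrays (1.59-fold, log2 0.67, SE 0.06, adjusted p = 3.47e-09). Cox5b rose by 0.47 and Sdhb, of succinate dehydrogenase, by 0.35. Cytosolic ribosomal protein genes gave 7 rises and 1 fall in 20 (median 0.12), among them Rplp1 (0.42) and Rpl8 (0.37), but 2 rises both with quantile normalization and with the replicate block and 17 after centring. G1/S and DNA replication genes gave 10 rises and 1 fall in 29 (median 0.09). Ccnd2, which encodes cyclin D2, rose 1.35-fold (log2 0.43, SE 0.05), the phosphatase gene Cdc25a 1.31-fold (log2 0.39), and Gins2, of the replicative helicase, fell (log2 -0.38, SE 0.04, adjusted p = 3.82e-07). G2/M genes gave 5 rises and 1 fall in 23 (median 0.07), which became 1 rise and 4 falls with quantile normalization and 11 rises and 1 fall with centring. Of 10 replication-dependent histone genes 3 rose, H2ac4 by 0.86.

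Amino acid and ER stress genes gave 10 rises in 28 (median 0.11), among them Sdf2l1 (0.41), the tRNA synthetase gene Gars (0.36) and the asparagine synthetase gene Asns (0.25), and 4 rises and 2 falls with quantile normalization. Heat shock genes gave 5 rises and 1 fall in 11 (median 0.13), with Ahsa1 and Hsph1 at 0.33 and Hspe1 at 0.31. Glycolysis and hypoxia genes gave 5 rises and 1 fall in 22 (median 0.10), with the hexokinase gene Hk2 at 0.69 and Pgam1 at 0.46. Cholesterol synthesis genes gave 4 small rises in 21 (median 0.10), 1 with quantile normalization and 7 with centring. In the BCL2 family Bcl2l1 (0.70) and Bid (0.33) rose, while Bik (-0.35) and Bok (-0.31) fell among 14 genes, Bok with an adjusted p of 0.0629 under the replicate block.

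Falls were smaller than the rises. Among the 9969 genes at or above the median level 898 passed as lower and 2708 as higher, and with quantile normalization 1359 and 1335 did. FOXO and starvation genes, which serum and cytokine loss raise, gave 8 falls and no rise in 29 (median -0.15), with 9 falls after quantile normalization but 4 after centring. Klf7 (log2 -0.34), the stress gene Gadd45a (-0.35) and Tsc22d3 (-0.31), which encodes GILZ, were among them. Of genes at or above the median level, with predicted loci, small RNA genes, antigen receptor segments and odorant receptors left out, the largest falls were in Krtap5-3, a keratin-associated protein gene (log2 -0.66, SE 0.11), and in Otx1, a homeobox gene, at 9.31, 9.39 and 9.53 with mCherry-Fc against 9.91, 10.03 and 10.13 in untreated arrays (1.54-fold lower, log2 -0.62, SE 0.11, adjusted p = 0.000174). Kmt2e, which encodes a chromatin protein, fell 1.43-fold (log2 -0.52, SE 0.07), Hipk2, a stress kinase, 1.42-fold (log2 -0.51), and Hivep1, a zinc finger factor, 1.40-fold (log2 -0.49, SE 0.07). Tns1 passed on 1 of 6 probe sets (-0.59) and is uncertain, and Arrdc3 (-0.53, adjusted p = 0.0241) lost its call after median centring (0.0544) and without untreated replicates 7 or 11 or mCherry-Fc replicates 13, 14 or 15 (adjusted p between 0.0553 and 0.0654).

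**Figure D3:**
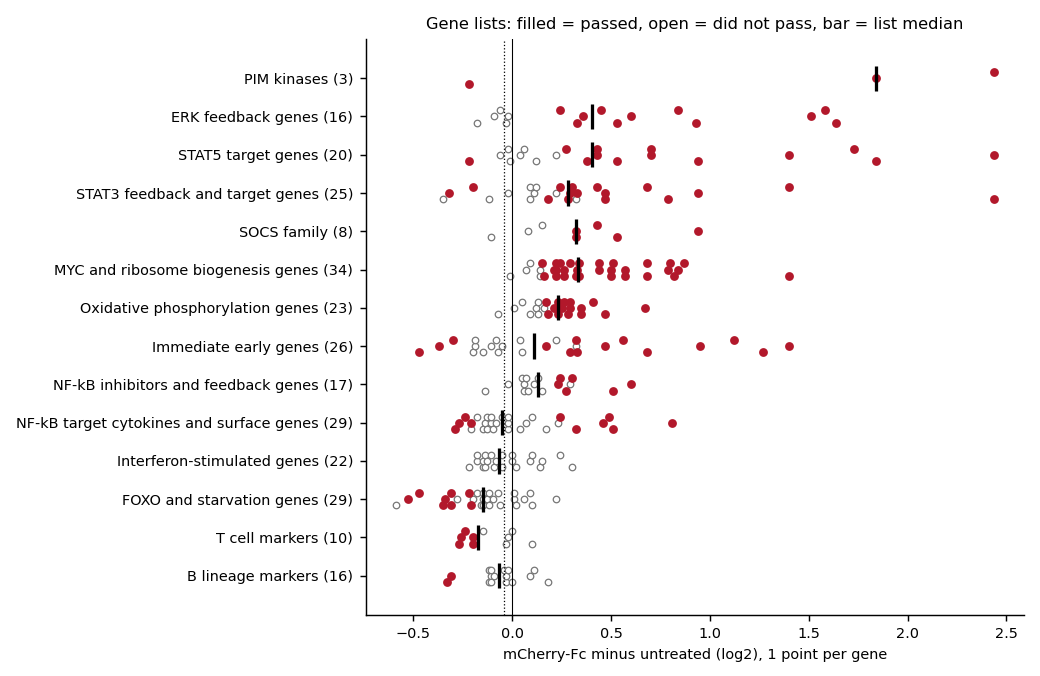
Difference between mCherry-Fc and untreated arrays (log2, horizontal axis) for every measured gene of 14 lists, with the number measured in brackets. Filled points passed the test, open points did not, a black bar is the list median and the dotted line the median of all genes (-0.04). The PIM, ERK feedback, STAT5 and biogenesis lists lie to the right of it, while the interferon and NF-kB cytokine lists lie around it.

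Markers of other blood cells were set beside these changes. Of 10 T cell markers, none was as bright as the median gene, and 5 passed as lower (Cd3e, Zap70, Cd4, Cd247 and Cd5, -0.20 to -0.27), none of which passed after median centring or quantile normalization. Summed over the list, T cell markers ranged from 54.7 to 56.5 with mCherry-Fc and from 54.8 to 57.9 in untreated arrays (sum of log2 intensities). Of 16 B lineage markers 4 reached the median gene (Cd79a, Cd79b, Vpreb2 and Ptprc), and the summed level was 90.7 to 92.7 with mCherry-Fc against 91.8 to 94.6, with Vpreb2 (-0.33) and Vpreb3 (-0.31) lower. Cd4 did not pass without untreated replicates 7 or 9 or mCherry-Fc replicates 9 or 13 (adjusted p between 0.0623 and 0.097), nor Vpreb2 without untreated replicates 7 or 11 or mCherry-Fc replicates 13 or 15 (0.0536 to 0.0849). Myeloid markers gave 1 rise and 1 fall in 15, mast cell and basophil markers 4 falls in 13 and erythroid and megakaryocyte markers 2 rises and 1 fall in 11, of which 8 reached the median gene. Over all genes 14.0% rose and 13.0% fell, and 1685 of the 9969 genes below the median level fell. The B lineage, myeloid and erythroid counts are not set apart from these shares. After centring no mast cell marker passed as lower, and 1 did with quantile normalization. The part of these shifts in the gene lists above was not tested.

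The direct comparison with GFP-mCherry took untreated arrays only into the estimate of the spread. Of 19938 genes 218 passed (1.09%), 74 higher with mCherry-Fc (0.371%) and 144 lower (0.722%), or 100 in all with the replicate number as a block, and 590 genes (2.96%) did not overlap between the 2 groups. The balance moved with the fit, to 226 higher and 234 lower with only the compared groups in it, 253 and 251 within low replicate numbers and 173 and 141 within high ones. Of the 19 genes that differed by 2-fold or more, 18 were lower with mCherry-Fc, and all 16 genes past a tested change of 1.5-fold were lower. Of the 18, 5 are on the list of NF-kB inhibitors and feedback genes and 4 on that of NF-kB target cytokines and surface genes. NF-kB is a family of factors that inflammatory receptors release from IκB proteins.

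Nfkbia (probe set 10400405), which encodes IκBα, read 8.38, 8.58 and 8.74 with mCherry-Fc, 11.61, 11.69 and 11.98 with GFP-mCherry and 8.37, 8.45 and 8.76 in untreated arrays. It stood 8.9-fold lower with mCherry-Fc than with GFP-mCherry (log2 -3.15, SE 0.17, adjusted p = 5.11e-13), and the mCherry-Fc arrays overlapped the untreated ones (log2 0.07, SE 0.17, adjusted p = 0.780). Tnfaip3, which encodes the deubiquitinase A20, read 7.31, 7.41 and 7.62 with mCherry-Fc, 9.35, 9.44 and 9.69 with GFP-mCherry and 7.26, 7.47 and 7.62 in untreated arrays. Its difference was -2.03 against GFP-mCherry (adjusted p = 3.19e-12) and -0.02 against untreated arrays (0.928). Nfkbiz, an atypical nuclear IκB, was 4.09-fold below GFP-mCherry (log2 -2.03), Zc3h12a, the RNase Regnase-1, 3.74-fold (-1.90), and Gpr84, a fatty acid receptor of myeloid cells, 4.12-fold (-2.04). Against untreated arrays Gpr84 (0.46, adjusted p = 0.00403) and Zc3h12a (0.30, 0.0110) rose, and neither passed within low replicate numbers (0.0851 and 0.0877). Nfkbiz stood 0.29 above untreated arrays without overlap and did not pass (adjusted p = 0.0775). It did pass with only the compared groups in the fit (0.00246), with the number range as a term (0.000598) and within low replicate numbers (0.00255). It also passed after median centring (0.0252) and with the replicate number as a fixed block (0.0227), but not with quantile normalization or within high replicate numbers. Nfkbie, for IκBε, was 3.71-fold below GFP-mCherry (log2 -1.89, adjusted p = 1.05e-15) although it also rose 1.42-fold over untreated arrays (log2 0.51, SE 0.08, adjusted p = 3.27e-05), and Nfkbid rose 1.51-fold (log2 0.60).

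Of 17 NF-kB inhibitors and feedback genes, 6 rose over untreated arrays with mCherry-Fc (median 0.13), 2 with quantile normalization and 9 with centring. The same 17 gave 15 rises with GFP-mCherry (median 0.84, where 14.2% of all genes rose and 11.8% fell), and both counts share the untreated arrays. Set directly against GFP-mCherry, 11 of the 17 were lower with mCherry-Fc, none was higher, and the median difference was -0.85 against 0.00 over all genes. Of 29 NF-kB target cytokines and surface genes, 6 rose and 4 fell with mCherry-Fc (median -0.05), and 6 were below GFP-mCherry. Tnf, the cytokine, read 6.40, 6.59 and 6.95 with mCherry-Fc, in partial overlap with 5.82, 6.10 and 6.46 in untreated arrays. It rose 1.42-fold over them (log2 0.51, adjusted p = 0.0306) and was 2.73-fold lower than with GFP-mCherry (log2 -1.45, adjusted p = 3.39e-06). NF-kB subunits and kinases gave 2 rises and 1 fall in 11, the fall in Rel (log2 -0.42), and Toll-like receptors and their co-receptors 1 rise, Myd88 (0.49), and 1 fall, Ly96 (-0.47), in 17. Myd88 lost its call without mCherry-Fc replicate 13 (adjusted p = 0.0530) and with quantile normalization (0.0602).

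The NF-kB motif, searched on both strands in the same RefSeq windows, was found in 8 of 15 windows of the inhibitor list (53.3%) and in 894 of 15563 windows of all measured genes (5.74%). The stretches below belong to 3 genes that GFP-mCherry arrays held far above mCherry-Fc arrays, with the motif in capitals.
Nfkbia, chr12:55492652-55492731, minus strand: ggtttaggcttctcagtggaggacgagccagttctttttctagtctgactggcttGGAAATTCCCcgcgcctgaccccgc
Nfkbie, chr17:45555539-45555618, plus strand: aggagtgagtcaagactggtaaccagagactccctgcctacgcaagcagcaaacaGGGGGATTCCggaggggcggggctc
Tnfaip3, chr10:19015411-19015490, minus strand: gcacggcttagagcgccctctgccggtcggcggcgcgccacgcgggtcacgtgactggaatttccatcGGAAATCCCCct
The capitals start 29, 106 and 12 bases before the starts of Nfkbia, Nfkbie and Tnfaip3. The motif letters were thus present in the promoter of Nfkbie, which rose with mCherry-Fc, and in those of Nfkbia and Tnfaip3, which did not pass. STAT letters, TTCNNNGAA, were found in 6 of 23 windows of the STAT3 list (26.1%), in none of 10 windows of the 15 largest rises and in 1402 of 15563 windows overall (9.01%). Socs3 held the STAT letters 154 bases before its start.
Socs3, chr11:117969497-117969576, minus strand: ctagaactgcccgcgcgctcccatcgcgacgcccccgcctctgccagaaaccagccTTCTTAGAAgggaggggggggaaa

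**Figure D4:**
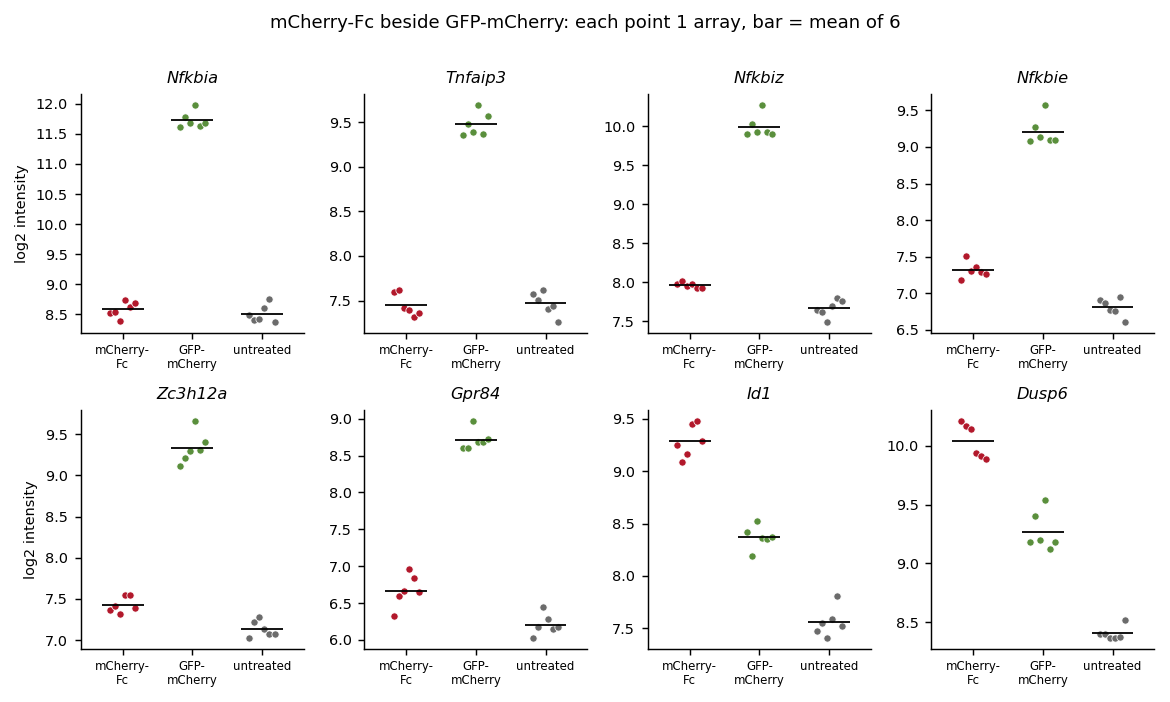
Log2 intensity of 8 genes in each of the 6 mCherry-Fc, 6 GFP-mCherry and 6 untreated arrays, from left to right, with the mean as a bar and a vertical scale of its own in each panel. Nfkbia and Tnfaip3 overlap between mCherry-Fc and untreated arrays and lie far higher with GFP-mCherry. Id1 and Dusp6 are highest with mCherry-Fc.

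Several genes that stood higher with mCherry-Fc than with GFP-mCherry were also rises over untreated arrays. Id1 was 1.89-fold higher (log2 0.92, SE 0.10, adjusted p = 8.88e-07), with GFP-mCherry arrays at 8.19, 8.36 and 8.52, between those of mCherry-Fc and untreated cells. Dusp6 was 1.71-fold higher (log2 0.78, SE 0.09, adjusted p = 1.13e-06), Myc 1.34-fold (log2 0.42, SE 0.07, adjusted p = 0.000636) and Spry4 1.28-fold (log2 0.35, adjusted p = 0.00114). Egr2 was 1.59-fold higher (log2 0.67, adjusted p = 0.00544, or 0.281 with the replicate block). Bex6, a gene on chromosome 16 named after the brain-expressed X-linked family, was 2.13-fold higher with mCherry-Fc at 7.79, 8.04 and 8.39 against 6.63, 6.95 and 7.43 with GFP-mCherry (log2 1.09, SE 0.13, adjusted p = 3.56e-06), but did not pass against untreated arrays (log2 0.20, adjusted p = 0.254). The same held for Insig1, a regulator of sterol synthesis (0.71 above GFP-mCherry, 0.20 over untreated), and Sla, which encodes a Src-like adaptor (0.70 and 0.27, the first lost within high replicate numbers at an adjusted p of 0.124). Cholesterol synthesis genes were higher with mCherry-Fc than with GFP-mCherry in 6 of 21 and lower in none (median 0.19). Against untreated arrays 7 of the 21 were lower and 3 higher with GFP-mCherry (median -0.05), and 4 were higher with mCherry-Fc. Bex6 (-0.89), Insig1 (-0.51) and Sla (-0.44) were also lower with GFP-mCherry than in untreated arrays. For Pim1 (0.05, 95% interval of the difference in the model -0.27 to 0.36), Socs3 (-0.08), Nop56 (0.05) and Cox5a (-0.05) no difference between the ligands passed the test.

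Set against IL-22 on the natural receptor, the mCherry-Fc response differed in 2664 of 19938 genes (13.4%), above the IL-22 response in 1747 (8.76%) and below it in 917 (4.60%). With quantile normalization 1028 were above and 962 below, after centring 2111 and 616. Among large differences the balance turned, with 31 above and 139 below at 2-fold or more, and 18 above and 103 below where a change of more than 1.5-fold was tested. This is a difference of differences, each response taken over the untreated cells of its own line, and line and ligand cannot be told apart in it. With IL-22 itself 5.39% of genes rose and 6.03% fell. IL-22 raised the classical STAT3 feedback genes much further. Socs3 rose by 0.94 with mCherry-Fc and by 4.30 with IL-22, where it read 11.77, 11.81 and 11.92 against 7.36, 7.49 and 7.78 in natural untreated arrays (difference -3.36, SE 0.11, adjusted p = 4.61e-18). For Il4ra the responses were 0.79 and 3.89 (difference -3.11), for Zfp36 0.68 and 3.35 (-2.67) and for Sbno2 0.47 and 2.81 (-2.35). Il2ra, the IL-2 receptor alpha chain, did not pass with mCherry-Fc (0.06) and rose by 3.98 with IL-22. Gadd45g, a stress gene under STAT3, rose by 3.66 with IL-22, and Gpr146, an orphan receptor, by 2.49, where the mCherry-Fc value of -0.06 did not pass. The mCherry-Fc value of Gadd45g was 0.28, which no longer passed without untreated replicates 12, 13 or 14 or mCherry-Fc replicates 9, 10 or 13 (adjusted p between 0.0511 and 0.0662) or with quantile normalization (0.418). The responses of Cish (difference -1.63), Junb (-1.22), Stat3 (-0.89), Bcl3 (-0.85) and Socs1 (-0.53) were also below those to IL-22, Bcl3 not within high replicate numbers (-0.56, adjusted p = 0.121).

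ERK feedback genes differed in both directions, with the mCherry-Fc response above the IL-22 response in 5 and below it in 5 of 16 (median difference -0.09). Below it were, among others, Phlda1 (difference -0.90) and Spry2 (-0.52), which rose with both ligands. Dusp4 rose by 1.58 with mCherry-Fc and fell by 0.54 with IL-22 (difference 2.12, SE 0.14, adjusted p = 1.55e-11). Dusp6 rose by 1.64 with mCherry-Fc and fell by 0.33 with IL-22 (difference 1.97, SE 0.14, adjusted p = 3.31e-11). Their starting levels differed between the lines: Dusp6 had a median of 8.39 in synthetic untreated arrays and 9.89 in natural untreated arrays, and Etv5 7.02 and 8.83. Etv5 rose by 1.51 with mCherry-Fc, while its IL-22 value of -0.03 did not pass (difference 1.53), and Sik1 rose by 0.75 and fell by 0.68 with IL-22 (difference 1.43). Mc5r, a melanocortin receptor gene, fell by 0.42 with mCherry-Fc (adjusted p = 0.0678 after centring) and by 2.28 with IL-22 (difference 1.86), and Cnr2, a cannabinoid receptor gene, did not pass with mCherry-Fc (0.13) and fell by 1.36 with IL-22. The Myc response was larger with mCherry-Fc (1.40 and 0.57, difference 0.82, adjusted p = 6.99e-06), as was that of Pim2 (1.84 and 0.58, difference 1.26, adjusted p = 0.00173). The IL-22 value of Pim2 did not itself pass (adjusted p = 0.0699). Its starting level also differed, with a median of 8.17 in synthetic untreated arrays and 11.45 in natural untreated arrays.

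Several large rises did not differ between the responses by this test. Id1 rose by 1.73 with mCherry-Fc and by 1.93 with IL-22 (difference -0.20, 95% interval -0.53 to 0.13), Fosl1 by 1.27 and 1.20 (0.07, -0.38 to 0.51) and Rpp38 by 1.01 and 1.05 (-0.04, -0.29 to 0.21). The Pim1 responses of 2.44 and 1.67 differed by 0.77 (SE 0.24, adjusted p = 0.0328), a call lost with quantile normalization (0.0645), with the replicate block (0.104) and without IL-22 replicate 3, natural untreated replicates 4 or 5 or synthetic untreated replicates 12 or 14 (0.0534 to 0.0981), and within low replicate numbers the difference was -0.03. By list, the mCherry-Fc response was below the IL-22 response in 14 and above it in 2 of 25 STAT3 genes (median difference -0.79), in 11 and 1 of 18 IL-10 response genes (-0.79) and in 9 and 1 of 22 interferon-stimulated genes (-0.42). No interferon-stimulated gene passed with mCherry-Fc in limma's test (1 higher and 2 lower at an unadjusted p under 0.05). The mCherry-Fc response was above the IL-22 response in 7 of 23 oxidative phosphorylation genes, 10 of 29 G1/S genes and 4 of 34 biogenesis genes, and below it in none of these.

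**Figure D5:**
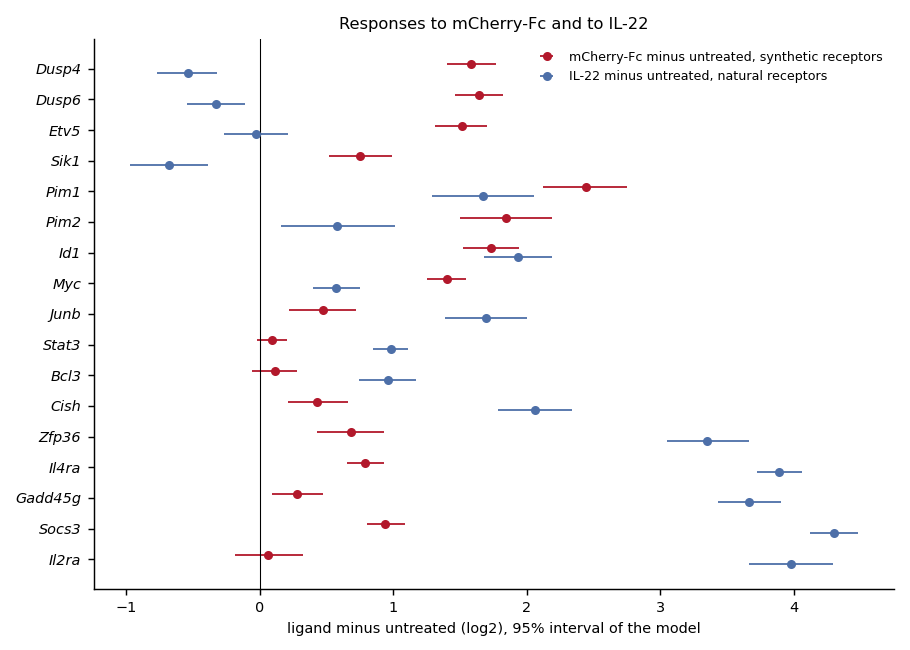
Response to mCherry-Fc in synthetic receptor cells and to IL-22 in natural receptor cells (log2 difference from each line's untreated arrays, points with 95% intervals) for 17 genes. Dusp4, Dusp6, Etv5 and Sik1 lie higher with mCherry-Fc, while Socs3, Il2ra, Il4ra, Gadd45g and Zfp36 lie far higher with IL-22.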

How the data were processed

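Expression was measured on Affymetrix Mouse Gene 1.0 ST arrays from 150 ng of RNA. Values are log2 intensities that the authors deposited for 35556 probe sets, made at gene level with Affymetrix Expression Console 4.0, per the submitters' processing notes, and were used as deposited. A genome build of the array files is not given in the sources used here. Of the probe sets 21789 carried 1 gene symbol. For the 999 genes with several, the probe set with the highest mean was used, which left 19938 genes. The 26 arrays in 5 groups were fitted with limma 3.58.1 (lmFit and eBayes, R 4.3.3) with Benjamini-Hochberg adjustment over all genes and a threshold of 0.05. The number of arrays limits the precision.

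Members and lists were chosen with earlier results of these data known. Named genes were the 15 largest rises and 15 largest falls among called genes at or above the median level (without predicted loci, small RNA genes, antigen receptor segments, and olfactory and vomeronasal receptors), the 3 called members of smallest p in each of 33 lists (all where 5 or fewer), 16 genes in every case, and the 6 largest differences each way for the other comparisons. Further list members were named after their values were seen. Deviations of same-numbered mCherry-Fc and untreated arrays correlated at r = 0.26, 0.47 and 0.33 for numbers 9, 13 and 14. For mCherry-Fc and GFP-mCherry arrays r was 0.22, 0.27 and 0.11. The own number was the best match in 1 case with untreated arrays and in 2 with GFP-mCherry arrays. Low and high numbers also differed, with mCherry-Fc array medians of 6.10 to 6.14 and 6.06 to 6.08. The numbers were taken as pairs in the replicate block, but pairing itself was not tested. Of the mCherry-Fc arrays only numbers 9, 13 and 14 also occur in the untreated and GFP-mCherry groups. Arrays 8, 10 and 15 share their number with no other array and so added nothing to the mCherry-Fc comparisons in the fixed block. Alternatives were other scalings, filters, probe set rules, variance priors, array weights, a minimum change, replicate blocks, number ranges and leaving out each array. The fit was tested on simulated data.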

Additional observations from a re-analysis of the deposited data

Results flagged for a closer look

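Of 86 groups checked over 43 genes, 2 held an array far from the others, where chance flags about 5% of groups. Dusp6 read 8.52 in untreated replicate 14, above the other untreated arrays at 8.37 to 8.40. Il22ra1 read 6.16 in mCherry-Fc replicate 9, below the other mCherry-Fc arrays at 6.23 to 6.28.

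The response to mCherry-Fc differed from the response to IL-22 by a test of the difference in 12 genes that the naming rule took for it. It was higher in Dusp4 (difference 2.12, adjusted p = 1.55e-11 in limma), Dusp6 (1.97), Mc5r (1.86), Etv5 (1.53), Cnr2 (1.48) and Sik1 (1.43). It was lower in Il2ra (-3.91), Gadd45g (-3.38), Socs3 (-3.36), Il4ra (-3.11), Zfp36 (-2.67) and Gpr146 (-2.56).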

How the results depend on the processing

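Genes called between mCherry-Fc and untreated arrays numbered 3146 with quantile normalization and 15 with a tested minimum change of 1.5-fold, and 3834 to 6460 when 1 array was left out. Against GFP-mCherry they numbered 478 with array weights, 460 with only the compared groups in the fit, 16 with the minimum change, 100 with the replicate block, 469 with the number range as a term, 504 within low numbers and 166 to 200 when 1 array was left out. For the difference from the IL-22 response they numbered 121, 4279 with the range term, 4253 within low numbers, 872 within high numbers and 1997 to 3359 when 1 array was left out. The cause was not tested, beyond fewer arrays in the last kinds of fit. With the replicate number as a fixed block 3991 genes were called against untreated arrays and 2544 for the difference from IL-22. In that fit mCherry-Fc arrays 8, 10 and 15, whose numbers no other array shares, add nothing to the comparisons. A random block gave 6532, 304 (against GFP-mCherry) and 3776. The difference in array medians was -0.09 to -0.11 when 1 array was left out. The Pim1 difference between the responses turned to -0.03 within low numbers. Of 3369 values of 136 named genes against untreated arrays, 3101 kept direction and side of the threshold, 255 lost the call, 13 gained it and 0 reversed. Of 73 named rises 15 lost their call with quantile normalization, as did 15 of 47 named falls. Centring, which adds a like amount to every difference, ended 22 of those falls and 0 of the rises by its construction. The family, level and leave-one-out median checks were chosen after seeing the data. Signal over background was not used, since the deposited values carry no background reading.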

Other observations

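Gene families were grouped by symbol after the values were seen, and moved in both directions. Over all genes 14.0% were higher and 13.0% lower. At or above the median level 2708 of 9969 genes were higher and 898 lower, and below it 80 and 1685 of 9969. Of 77 mitochondrial ribosomal protein genes 55 were called higher with mCherry-Fc and none lower (median 0.24, 31 higher with quantile normalization). Proteasome subunit genes gave 21 higher and none lower of 39 (median 0.17), and CCT chaperonin genes, which fold actin and tubulin, 7 of 8 (median 0.22). Genes of RNA polymerases I and III gave 9 of 14 and cytoplasmic aminoacyl-tRNA synthetase genes 11 of 18, with none lower. With quantile normalization the proteasome genes gave 14 higher and 1 lower, the polymerase genes 7 higher and the synthetase genes 9 higher and 1 lower. Among 51 snoRNA genes 21 were higher and 2 lower (median 0.28). Keratin-associated protein genes gave none higher and 17 lower of 44 (median -0.17), 10 lower after centring and 9 with quantile normalization. Vomeronasal receptor genes gave none higher and 5 lower of 163, but 11 higher and 1 lower after centring.

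The host gene and several microRNAs of the Mir17 cluster, a known target of MYC, were higher with mCherry-Fc, on dim probe sets. Mir18 averaged 5.46 with mCherry-Fc and 4.23 in untreated arrays (log2 1.23, adjusted p = 7.87e-06 in limma). Mir19b-1 (0.70), Mir17hg (0.64) and Mir19a (0.63) passed too, while Mir17 (0.16) and Mir20a (0.23) did not.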
